A study of Mus musculus with 4 samples.

Results

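The genes described here are the NF-kB pathway: 39 genes, chosen by symbol from the 24340 genes of the deposited expression table, that encode the NF-kB subunits, the IkB proteins, the upstream kinases, the receptors and adaptors that feed them, and genes that NF-kB induces in return. Cytokines were left out. The rule goes by symbol and holds no criterion on measured values. Of the 39, 36 had a mean of at least 1 FPKM (fragments per kilobase of transcript and 1000000 fragments) over the libraries and are called measured, as were 10471 genes of the whole table. Traf1 lay just above that limit with a mean of 1.19 FPKM, and Bcl3 just below it with 0.751 FPKM.

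The RNA came from C57BL/6 mouse bone marrow cells labelled Lin-cKit+, a sort used to gather immature blood cells. Per the sample labels all of the cells carried JAK2V617F, an activated form of the kinase JAK2 found in myeloproliferative disease. The design text of the series speaks instead of Dnmt3a and Tet2 inactivation crossed with Flt3ITD, and the labels of the samples are followed here. They were either Tet2-/- or Tet2+/+ (TET2 oxidises methylated cytosine), and were either treated with ruxolitinib, an inhibitor of JAK1 and JAK2, or were controls. There was 1 library for each of the 4 combinations, called here KO rux, KO control, WT rux and WT control. Age, the Cre driver, the number of animals behind a library, and the dose and time of ruxolitinib are not stated in the labels. With no replicates, no difference below has a spread to set it against, and no p-value was computed.

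NF-kB proteins bind DNA as pairs of subunits. In resting cells IkB proteins hold them in the cytoplasm, until receptors of the TNF, Toll-like and interleukin families switch on the IkB kinase complex, which marks IkB for destruction. The freed dimers then induce, among other genes, their own inhibitors, such as Nfkbia (IkB alpha) and Tnfaip3 (the ubiquitin-editing enzyme A20), so that a burst of signalling ends itself. In blood cells the pathway is known for its part in inflammation, survival and the choice between self-renewal and myeloid differentiation.

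RefSeq promoter windows on GRCm38.p6, running from 250 bases before a start site to 50 bases after it, were found for 32 of the 39 genes. The 4 windows printed here belong to genes that the results turn on, Nfkbid and Tnfaip2, and to the textbook feedback inhibitors Tnfaip3 and Nfkbia. They are chr7:30422156-30422455 on the plus strand for Nfkbid, chr12:111442411-111442710 on the plus strand for Tnfaip2, chr10:19015361-19015660 on the minus strand for Tnfaip3 and chr12:55492598-55492897 on the minus strand for Nfkbia. Each reads 5′ to 3′ along the gene, and capitals mark bases that match the kappa-B consensus, the sequence that NF-kB dimers bind, on either strand.
Nfkbid: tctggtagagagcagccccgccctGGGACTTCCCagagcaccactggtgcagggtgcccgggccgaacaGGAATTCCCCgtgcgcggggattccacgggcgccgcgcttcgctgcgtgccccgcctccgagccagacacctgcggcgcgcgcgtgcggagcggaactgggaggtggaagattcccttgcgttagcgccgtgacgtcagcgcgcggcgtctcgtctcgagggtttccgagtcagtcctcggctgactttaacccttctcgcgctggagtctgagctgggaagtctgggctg
Tnfaip2: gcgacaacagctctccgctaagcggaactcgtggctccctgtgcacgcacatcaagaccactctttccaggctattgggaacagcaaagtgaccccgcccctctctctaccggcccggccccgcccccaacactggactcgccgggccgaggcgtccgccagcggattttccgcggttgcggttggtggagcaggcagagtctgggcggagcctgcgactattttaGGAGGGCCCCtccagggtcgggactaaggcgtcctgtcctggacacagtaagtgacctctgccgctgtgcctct
Tnfaip3: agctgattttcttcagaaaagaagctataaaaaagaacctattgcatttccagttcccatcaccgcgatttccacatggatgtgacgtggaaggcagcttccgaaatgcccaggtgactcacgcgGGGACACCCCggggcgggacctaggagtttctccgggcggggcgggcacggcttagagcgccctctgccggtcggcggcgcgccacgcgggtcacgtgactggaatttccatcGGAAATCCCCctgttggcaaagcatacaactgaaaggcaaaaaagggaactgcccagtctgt
Nfkbia: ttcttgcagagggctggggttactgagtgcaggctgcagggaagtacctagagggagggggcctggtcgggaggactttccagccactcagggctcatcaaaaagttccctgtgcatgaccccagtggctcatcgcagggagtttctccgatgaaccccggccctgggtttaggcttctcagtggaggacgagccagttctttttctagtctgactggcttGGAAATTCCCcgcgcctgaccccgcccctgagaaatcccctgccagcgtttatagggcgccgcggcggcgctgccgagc
A match is a description of letters and not a shown binding site. The Nfkbid window belongs to the middle one of 3 RefSeq start sites, and the other two windows had no match.

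At least 1 match to the kappa-B consensus stood in a window of 13 of the 32 members, or 40.6%, against 9.55% of 27025 genes with a window and 12% of the measured genes among them. Among genes with a single window the shares were 40% of 25 members and 8.01% of 22862 genes. Several members are on the list because they are known NF-kB targets, so this difference in share is not independent of the choice. In each of the 13 genes the match nearest to a start site is given here, read along the motif, to show how the sites differ in their middle bases.
Nfkb2: GGGGCTTTCC
Rel: GGGGATTTCC
Nfkbia: GGGAATTTCC
Nfkbid: GGGGAATTCC
Nfkbie: GGGGGATTCC
Bcl3: GGGAAGTCCC
Tnfaip2: GGGGCCCTCC
Tnfaip3: GGGGATTTCC
Tnip1: GGGGAATTCC
Traf3: GGGGATTTCC
Ier3: GGGGAACTCC
Cyld: GGGACTTTCC
Sod2: GGGGTTCCCC
Rel, Tnfaip3 and Traf3 shared the same 10 bases, and Nfkbid and Tnip1 shared another set. Counted from the start site, the nearest match began at position -11 in Nfkb2, -12 in Tnfaip3, -24 in Tnfaip2, -29 in Nfkbia and -181 in Nfkbid.

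Whole-gene Tet2 had 4.39 FPKM in KO rux and 3.619 in KO control, against 5.05 in WT rux and 4.69 in WT control, which does not show whether a part of the gene was deleted. Xist lay at 62.2 and 53.2 FPKM in KO rux and KO control, against 0.0309 and 0.0241 in WT rux and WT control, so genotype and sex of the cells cannot be told apart. Mast cell genes, given at the end, had the largest sum of the cell type marker lists in all 4 libraries. In bulk RNA fewer cells of a type and less RNA per cell cannot be told apart. This touches every ratio that follows.

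Without drug, most NF-kB pathway genes were somewhat lower in the knockout library than in the wild-type library. Of the 36 measured members 29 had a negative log2 ratio of FPKM + 1, or 80.6%, against 49.1% of all measured genes, and the members' median was -0.20 against 0.00 for all genes. Nfkbid, Traf1, Tnfaip2 and Relb were lower by at least 1.5-fold, which is 11.1% of the members beside 5.06% of all measured genes. No member was higher by 1.5-fold, beside 3.88% of all genes. When values were rescaled to sum to 1000000 in each library (TPM), the median of all genes moved to 0.14 and that of the members to -0.08, so that the members lay 0.22 below all genes in place of 0.21. On that scale 8.33% of all genes were 1.5-fold higher and 4.27% lower, and Nfkbid and Traf1 were the only members past 1.5-fold.

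With ruxolitinib in both genotypes the members were nearly level. The 20 members with a negative log2 ratio, or 55.6%, compare with 49.3% of all measured genes, and the median was -0.04 (0.00 over all genes). No member was 1.5-fold higher or 1.5-fold lower in KO rux than in WT rux, beside 2.97% and 3.34% of all genes. With a pseudocount of 0.1, or with the log2 fold changes of the authors' deposited table, 1 member (Traf1) was lower. Under TPM those shares of all genes were 6.38% and 3.05%, and the members' median turned to 0.09 while that of all genes was 0.13. These 2 knockout comparisons share no library. The difference was smaller with ruxolitinib than without it for 29 of the 36 members, or 80.6%, and for 64.3% of all measured genes. The members' median absolute log2 ratio was 0.11 with ruxolitinib and 0.22 without it. Over all genes these were 0.14 with ruxolitinib and 0.17 without it. Lower in knockout in both comparisons were 19 of the 36 members, and 6 were higher in both. Of the 10471 measured genes 4219 were lower in both and 4337 higher in both. Where genotypes are said below not to overlap, the share of all genes without overlap was not counted. Whether the members do so more often than other genes is therefore not known.

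**Figure D1:**
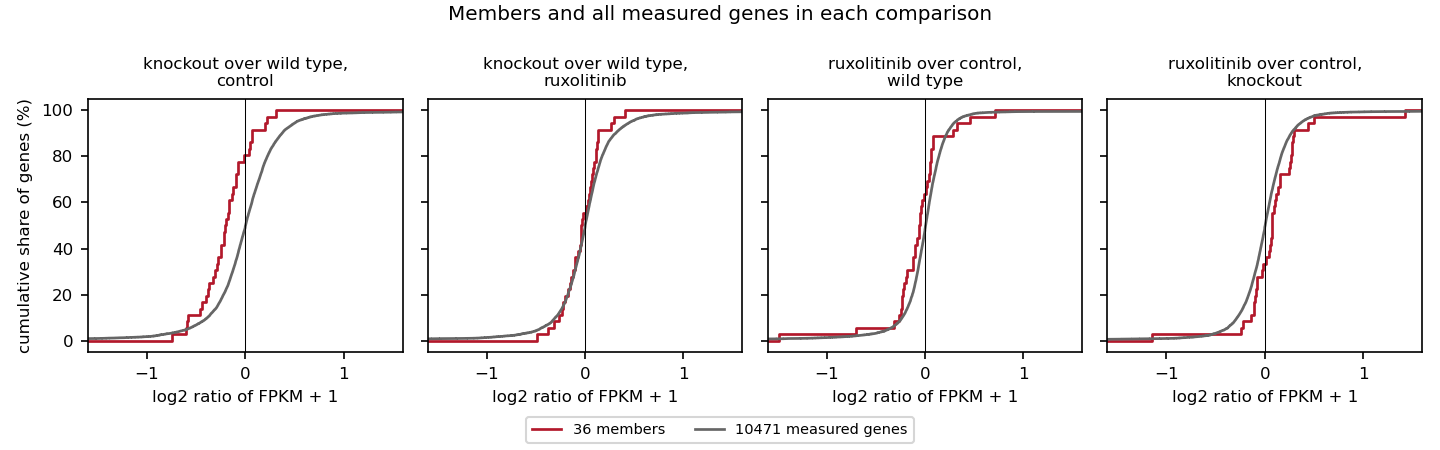
Cumulative share of genes (vertical axis, %) against the log2 ratio of FPKM + 1 (horizontal axis) in the 4 comparisons, for the 36 measured NF-kB pathway genes in red and for the 10471 measured genes in grey. In the knockout comparison without drug the red curve lies to the left of the grey one, with 80.6% of members below 0 against 49.1% of all genes, and in the other 3 panels the curves run closer together.

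The level of WT control stood at the top for many members. It was the highest of the 4 libraries for 18 of the 36 members, or 50%, beside 20.2% of all measured genes. KO control was the lowest library for 21 members, or 58.3%, beside 32.0% of all genes. Under TPM these became 10 of 37 members, or 27% beside 9.81% of all genes, and 16 of 37, or 43.2% beside 21.8%. WT control enters both the knockout comparison without drug and the ruxolitinib comparison in wild type, and KO control enters the knockout comparison without drug and the ruxolitinib comparison in knockout, so a high or low value of either moves 2 comparisons at once.

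**Figure D2:**
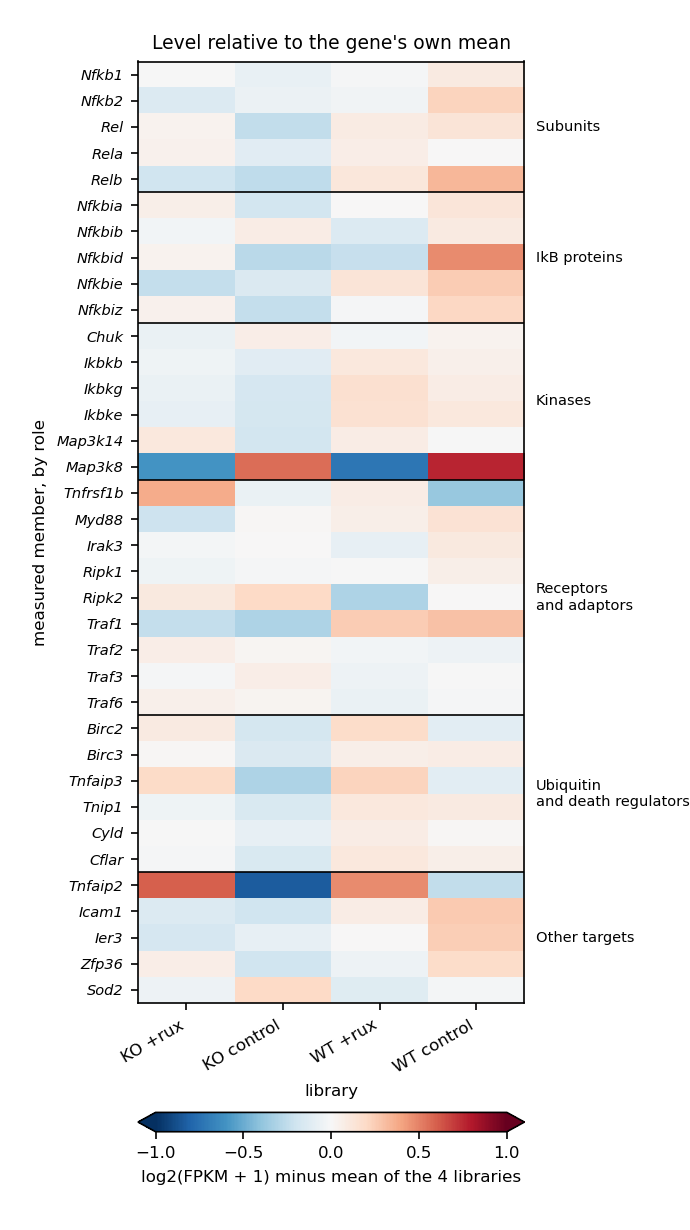
Level of each of the 36 measured members in KO rux, KO control, WT rux and WT control as log2(FPKM + 1) minus the gene's own mean over the 4 libraries, with members grouped by role. Red above the mean gathers in the WT control column among subunits and IkB proteins, while Map3k8 is low in both ruxolitinib columns and Tnfaip2 is high in both.

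On FPKM the 5 subunits were all lower in KO control than in WT control, most of all Relb, beside 49.1% of all measured genes. Under TPM Rela was slightly higher in KO control. Relb (chr7:19606217-19629438, GRCm38.p6) encodes the activating subunit of the slow, non-canonical arm of the pathway. It had 2.26 FPKM in KO rux and 2.14 in KO control, against 3.05 in WT rux and 3.71 in WT control. Both knockout values lay below both wild-type values. Its log2 ratio of knockout over wild type was -0.31 with ruxolitinib and -0.59 without drug, the last just past 1.5-fold and at percentile 5.05 of all measured genes. The authors' deposited table, with no pseudocount, gives Relb log2 fold changes of -0.43 with ruxolitinib and -0.80 without drug. An estimated 234 fragments in KO control and 328 in WT control stand behind the comparison without drug. They give a ratio without pseudocount a counting error of 0.12 on the log2 scale, which says nothing of the spread between animals.

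Rel, the subunit c-Rel of lymphoid and myeloid cells, had 14.6 FPKM in KO rux and 11.8 in KO control, against 15.1 in WT rux and 15.6 in WT control. KO control stood apart below the other 3 libraries, and the log2 ratio of knockout over wild type was -0.05 with ruxolitinib and -0.37 without it. Nfkb1 and Nfkb2 encode precursors that are trimmed to the DNA-binding subunits. Nfkb1 had 42.0 FPKM in KO rux and 40.02 in KO control, against 41.8 in WT rux and 44.9 in WT control, with log2 ratios of knockout over wild type of 0.01 with ruxolitinib and -0.16 without it. Nfkb2 had 13.1 FPKM in KO rux and 13.9 in KO control, against 14.1 in WT rux and 17.2 in WT control, with ratios of -0.10 with ruxolitinib and -0.28 without it. Rela, the most widely used activating subunit, had 31.9 FPKM in KO rux and 28.5 in KO control, against 32.5 in WT rux and 31.1 in WT control. Its log2 ratios of knockout over wild type were -0.03 with ruxolitinib and -0.12 without it, so Rela was the subunit that differed least without drug. Ruxolitinib over control gave the subunits log2 ratios between -0.08 and 0.28 in knockout and between -0.26 and 0.06 in wild type.

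Among the measured IkB genes, on FPKM + 1, Nfkbid differed most in KO control against WT control and in both ruxolitinib comparisons. Nfkbie differed most in KO rux against WT rux. In the authors' log2 fold changes of ruxolitinib over control in knockout, Nfkbiz, at 0.34, lay slightly above Nfkbid, at 0.33. Nfkbid (chr7:30421731-30428749) encodes IkBNS, a nuclear IkB protein that NF-kB itself induces. It had 13.6 FPKM in KO rux and 10.8 in KO control, against 11.1 in WT rux and 18.8 in WT control. WT control was alone at the top and the other 3 libraries lay close together. The knockout was 1.67-fold lower than the wild type without drug (log2 ratio -0.74), and ruxolitinib went with a 1.63-fold lower level in wild type (-0.70). With ruxolitinib in both genotypes the knockout was higher by 0.26 on the log2 scale, and within the knockout the drug-treated library was higher by 0.30. The difference between the 2 responses, knockout minus wild type, was 1.01 (2.01-fold), at percentile 99 of all measured genes. An estimated 975 to 1520 fragments per library give each single ratio a counting error of at most 0.061.

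The IkB proteins that hold NF-kB in the cytoplasm stayed within 1.5-fold in all 4 comparisons. Nfkbia had 9.71 FPKM in KO rux and 8.05 in KO control, against 9.28 in WT rux and 10.2 in WT control. The log2 ratio of knockout over wild type was 0.06 with ruxolitinib and -0.30 without it, and that of ruxolitinib over control was 0.24 in knockout and -0.12 in wild type. In the deposited table the Nfkbia row carries a locus of 211834 bases shared with 4 other genes, against 3239 bases for the gene in RefSeq, and the labels do not say how the authors split fragments within it. Nfkbib had 27.6 FPKM in KO rux and 29.8 in KO control, against 25.5 in WT rux and 30.1 in WT control. Nfkbie had 20.5 FPKM in KO rux and 21.9 in KO control, against 26.8 in WT rux and 29.3 in WT control. Both knockout libraries thus held less Nfkbie than both wild-type libraries, with log2 ratios of -0.37 with ruxolitinib and -0.40 without it, whereas the Nfkbib values of the genotypes overlapped.

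Nfkbiz encodes IkB zeta, a nuclear co-activator of secondary NF-kB targets. It had 4.87 FPKM in KO rux and 3.85 in KO control, against 4.65 in WT rux and 5.59 in WT control, with KO control lowest and WT control highest as for Nfkbid. Bcl3, the third nuclear IkB protein, did not reach the expression limit and lay between 0.401 FPKM in KO rux and 1.16 FPKM in WT control. On FPKM all 5 measured IkB genes had their highest value in WT control, beside 20.2% of all measured genes. Under TPM Nfkbia was highest in KO rux and Nfkbib in KO control.

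Between genotypes 0 of the 6 kinases passed 1.5-fold. Beside this, 5.06% of all measured genes were lower and 3.88% higher without drug, and 3.34% and 2.97% with ruxolitinib. On FPKM 5 of the 6 kinases were lower in KO control than in WT control. Their median log2 ratio there was -0.19, near the -0.20 of all measured members. With ruxolitinib the kinases' median was -0.095. Chuk and Ikbkb are the catalytic subunits of the IkB kinase complex and Ikbkg is its scaffold. Chuk had 30.5 FPKM in KO rux and 33.5 in KO control, against 31.4 in WT rux and 32.7 in WT control. Ikbkb had 24.5 FPKM in KO rux and 23.2 in KO control, against 27.2 in WT rux and 26.2 in WT control. Ikbkg, the only member on the X chromosome, had 12.2 FPKM in KO rux and 11.2 in KO control, against 14.3 in WT rux and 13.5 in WT control. For Ikbkb and Ikbkg both knockout values lay below both wild-type values on FPKM, by a small margin, but not under TPM. Ikbke, an IkB kinase homologue of the interferon pathway, had 6.42 FPKM in KO rux and 5.94 in KO control, against 7.71 in WT rux and 7.45 in WT control. Map3k14, the kinase NIK that drives the non-canonical arm, had 2.44 FPKM in KO rux and 1.81 in KO control, against 2.36 in WT rux and 2.17 in WT control.

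Map3k8 stood apart from the other kinases and had the lowest ratio of ruxolitinib over control of all members, in both genotypes. It encodes TPL2, a kinase kept in a complex with the Nfkb1 precursor and released by IkB kinase to activate the ERK pathway. Its level was 0.635 FPKM in KO rux and 2.63 in KO control, and 0.496 FPKM in WT rux and 3.19 in WT control. Both ruxolitinib libraries lay far below both controls. The log2 ratio of ruxolitinib over control was -1.15 in knockout (2.22-fold lower) and -1.49 in wild type (2.80-fold lower), at percentile 0.84 of all measured genes in knockout and 0.783 in wild type. Because the pseudocount shrinks low genes, the authors' deposited table, which uses none, gives log2 fold changes of -2.05 in knockout and -2.69 in wild type. An estimated 79 fragments in KO rux, 340 in KO control, 56 in WT rux and 333 in WT control carry these values. The counting error is 0.18 in knockout and 0.21 in wild type.

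**Figure D3:**
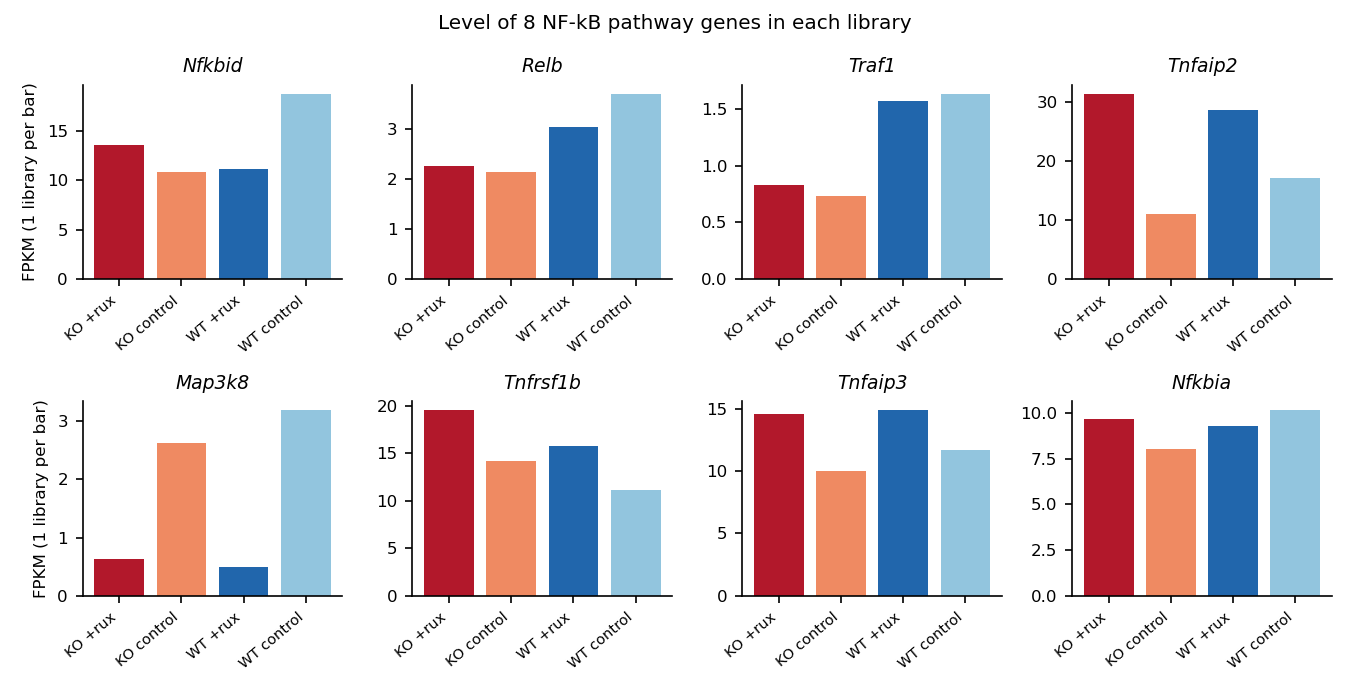
FPKM (vertical axis, own scale per gene, from 0) of 8 NF-kB pathway genes, 1 bar for each of KO rux, KO control, WT rux and WT control. Nfkbid is highest in WT control at 18.8 FPKM, Relb and Traf1 are lower in both knockout libraries, and Map3k8 is low and Tnfaip2 high in both ruxolitinib libraries.

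Receptors and adaptors held 9 measured members, and only Traf1 passed 1.5-fold in any comparison. Traf1 (chr2:34941750-34961812) is an NF-kB-induced adaptor of TNF receptors. It had 0.831 FPKM in KO rux and 0.736 in KO control, against 1.57 in WT rux and 1.63 in WT control. The 2 genotypes did not overlap and the drug made little difference within either. The log2 ratio of knockout over wild type was -0.49 with ruxolitinib and -0.60 without it, at percentile 4.45 of all genes with the drug and 4.78 without it. The authors' deposited table, with no pseudocount, gives Traf1 log2 fold changes of -0.92 with ruxolitinib and -1.15 without it. Estimated fragments numbered 141 in KO rux and 130 in KO control, against 242 in WT rux and 233 in WT control.

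Tnfrsf1b, the TNF receptor of leukocytes, was higher in the treated library of both genotypes and higher in the knockout under both conditions. It had 19.5 FPKM in KO rux and 14.2 in KO control, against 15.7 in WT rux and 11.2 in WT control. Ruxolitinib over control gave log2 ratios of 0.44 in knockout and 0.46 in wild type, at percentile 96.5 of all genes in knockout and 98.1 in wild type. These are 1.36-fold in knockout and 1.38-fold in wild type, below the 1.5-fold limit. Tnfrsf1a, the widely expressed TNF receptor, was not measured, with 0.0340 to 0.0638 FPKM. Cd40 was listed at 0 in all 4 libraries.

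Myd88, the adaptor of Toll-like and interleukin receptors, had 47.8 FPKM in KO rux and 55.8 in KO control, against 57.6 in WT rux and 61.2 in WT control. Irak3, an inhibitor in the same pathway, had 2.35 FPKM in KO rux and 2.39 in KO control, against 2.19 in WT rux and 2.62 in WT control. Ripk1, the scaffold kinase of the TNF receptor complex, had 22.9 FPKM in KO rux and 23.4 in KO control, against 23.6 in WT rux and 24.7 in WT control. These 3 genes stayed within 1.5-fold in all 4 comparisons. Ripk2, the kinase below the NOD receptors, had 8.90 FPKM in KO rux and 9.65 in KO control, against 6.49 in WT rux and 8.29 in WT control. It was higher in both knockout libraries than in both wild-type libraries, in contrast to Traf1.

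The remaining TRAF adaptors were nearly flat. Traf2 had 17.0 FPKM in KO rux and 16.5 in KO control, against 15.9 in WT rux and 15.7 in WT control. Traf3, which keeps the kinase NIK unstable, had 9.09 FPKM in KO rux and 9.65 in KO control, against 8.80 in WT rux and 9.12 in WT control. Traf6, the ubiquitin ligase of Toll-like and interleukin receptor signalling, had 10.4 FPKM in KO rux and 10.3 in KO control, against 9.53 in WT rux and 9.90 in WT control. These 3 were among the 7 members with a positive log2 ratio of knockout over wild type without drug, together with Chuk, Tnfrsf1b, Ripk2 and Sod2.

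On FPKM the 6 ubiquitin and death regulators were all lowest in KO control, beside 32.0% of all measured genes, with none past 1.5-fold. Under TPM Birc2 and Cyld were lower in WT control than in KO control. Tnfaip3 had 14.6 FPKM in KO rux and 10.03 in KO control, against 14.9 in WT rux and 11.7 in WT control. Both ruxolitinib libraries lay above both controls. The log2 ratio of ruxolitinib over control was 0.50 in knockout and 0.33 in wild type, at percentile 97.7 of all genes in knockout and 95.7 in wild type, and that of knockout over wild type was -0.03 with ruxolitinib and -0.20 without it. Birc2 and Birc3 encode the cIAP ubiquitin ligases of the TNF receptor complex. Birc2 had its 4 libraries in the same order as Tnfaip3, at 12.3 FPKM in KO rux and 10.2 in KO control, against 13.3 in WT rux and 10.7 in WT control. Birc3 did not, at 17.7 FPKM in KO rux and 15.7 in KO control, against 18.3 in WT rux and 18.5 in WT control.

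Tnip1, which binds A20, had 17.4 FPKM in KO rux and 16.0 in KO control, against 19.4 in WT rux and 19.2 in WT control. The genotypes did not overlap for Tnip1 on FPKM, but under TPM its value in KO rux lay above that in WT control. Cyld, a deubiquitinase that restrains the pathway, had 8.95 FPKM in KO rux and 8.42 in KO control, against 9.50 in WT rux and 9.05 in WT control. Cflar, an inhibitor of death-receptor apoptosis, had 13.9 FPKM in KO rux and 12.5 in KO control, against 15.2 in WT rux and 14.7 in WT control. On FPKM both had lower values in the knockout libraries, without overlap, and differences within 1.5-fold. Under TPM the genotypes overlapped for Cyld and for Cflar.

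Of the other induced genes, Tnfaip2 differed most. Tnfaip2 (chr12:111442450-111455018) is a gene first found as induced by TNF. It had 31.4 FPKM in KO rux and 11.02 in KO control, against 28.7 in WT rux and 17.1 in WT control. Both ruxolitinib libraries lay well above both controls. Ruxolitinib over control came to 2.70-fold in knockout (log2 ratio 1.43) and 1.64-fold in wild type (0.72), at percentile 99.6 of all genes in knockout and 99.2 in wild type. The knockout was lower without drug (log2 ratio -0.59), just past the 1.5-fold limit, and higher by 0.13 with it. The response in knockout exceeded that in wild type by 0.71. With 2139 to 5877 estimated fragments per library, the counting error of each ratio was at most 0.042. An antisense gene overlaps Tnfaip2 in the reference annotation, and the labels do not say whether the authors counted by strand. The same holds for members that overlap a gene on the opposite strand, among them Nfkbib (Sirt2), Ikbkg (G6pdx), Ripk1 (Serpinb6a), Myd88 (Acaa1a) and Irak3, whose partner Tmbim4 had 92.4 FPKM in KO rux and 98.4 in KO control, against 104 in WT rux and 106 in WT control.

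Icam1, an adhesion molecule, had 11.9 FPKM in KO rux and 11.4 in KO control, against 13.9 in WT rux and 16.0 in WT control. Ier3, a stress-response gene and the most abundant member, had 338 FPKM in KO rux and 358 in KO control, against 380 in WT rux and 451 in WT control. Both were lower in both knockout libraries on FPKM, but under TPM Ier3 in KO control lay above WT rux. Zfp36, the mRNA-decay factor tristetraprolin, had 2.84 FPKM in KO rux and 2.19 in KO control, against 2.54 in WT rux and 3.16 in WT control. Sod2, the mitochondrial superoxide dismutase, had 17.4 FPKM in KO rux and 20.8 in KO control, against 16.4 in WT rux and 17.7 in WT control. On FPKM Zfp36 had the order of Nfkbiz, with KO control lowest and WT control highest, while Sod2 was highest in KO control.

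Few members passed 1.5-fold between ruxolitinib and control in either genotype. In knockout Tnfaip2 was higher and Map3k8 lower, each 2.78% of the 36 members, beside 1.67% of all measured genes higher and 2.20% lower. In wild type Tnfaip2 was higher, or 2.78% beside 1.05%, and Map3k8 and Nfkbid were lower, or 5.56% beside 2.64%. The members' median log2 ratio was 0.07 in knockout, with 24 members positive, and -0.05 in wild type, with 13 positive. All-gene medians were 0.00 in knockout and 0.01 in wild type. The response in knockout minus that in wild type was positive for 30 of 36 members, or 83.3% against 47.4% of all measured genes, with a median of 0.12 (-0.01 over all genes). Nfkbid and Tnfaip2 passed 1.5-fold in this difference, 5.56% of members beside 1.82% of all genes, and none passed it on the lower side, beside 1.14%. With a pseudocount of 0.1 Nfkbiz and Zfp36 passed it too, 4 members in all, and with the log2 fold changes of the authors' deposited table Map3k8 as well, 5 in all. This difference uses the control libraries of both knockout and wild type and is the same number as the knockout ratio with ruxolitinib minus that without it.

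**Figure D4:**
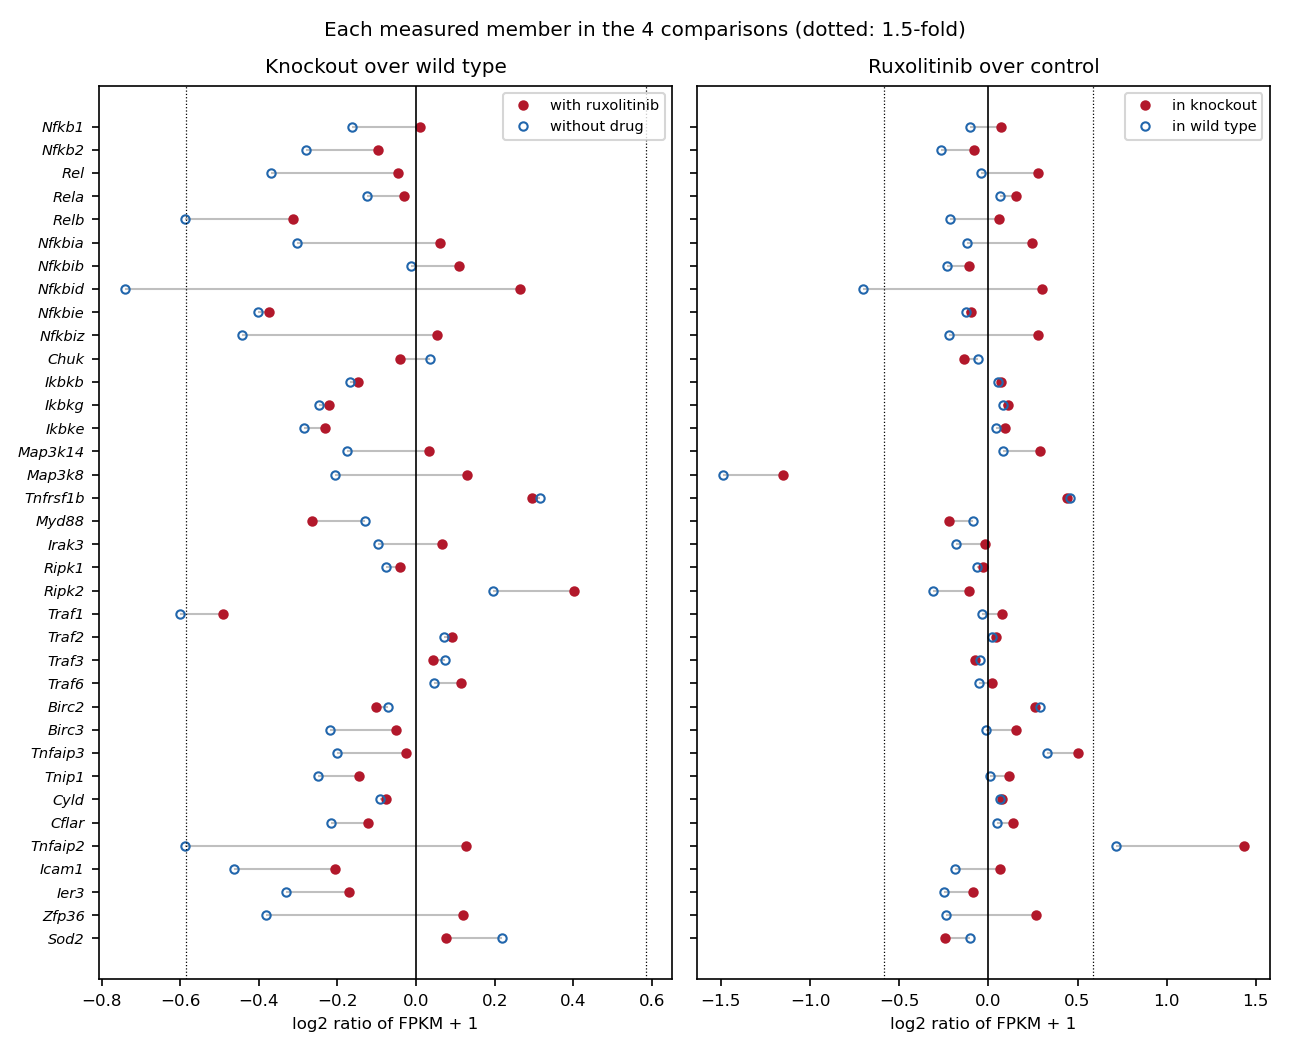
Log2 ratio of FPKM + 1 for each of the 36 measured members, knockout over wild type on the left (filled with ruxolitinib, open without drug) and ruxolitinib over control on the right (filled in knockout, open in wild type). Dotted lines mark 1.5-fold. On the left the open points of 29 members lie below 0, and on the right Map3k8 lies at -1.15 in knockout and -1.49 in wild type, and Tnfaip2 at 1.43 in knockout and 0.72 in wild type.

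The authors' deposited table gives a q-value for each gene and library pair, which sets 2 libraries against each other and not 2 genotypes or treatments. At a q-value of at most 0.05, the authors' deposited table has 8 of 37 tested members lower in KO control than in WT control, or 21.6% beside 9.68% of all tested genes, and 0 higher beside 9.37%. The 8 were Nfkbid, Relb, Tnfaip2 and Traf1, each at the smallest q-value of the authors' deposited table, 0.000746, with Nfkbiz (0.00359), Icam1 (0.00595), Nfkbie (0.0166) and Rel (0.0432). With ruxolitinib the authors' deposited table has Ripk2 higher in knockout (0.033), or 2.7% beside 7.39%, and Traf1 (0.00457) and Nfkbie (0.0333) lower, or 5.41% beside 6.21%. For ruxolitinib over control in knockout the authors' deposited table has Tnfaip2 (0.000746), Tnfaip3 (0.00139) and Tnfrsf1b (0.00502) higher, or 8.11% beside 4.85%. Map3k8 (0.000746) was lower there, or 2.7% beside 4.73% in the authors' deposited table. In wild type the authors' deposited table has Tnfaip2 (0.000746) and Tnfrsf1b (0.00457) higher, or 5.41% beside 2.39%, and Nfkbid and Map3k8 (both 0.000746) lower, or 5.41% beside 4.13%.

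Members with and without a kappa-B match in their promoter window were compared as groups, as a description. Without drug the 12 measured members with a match had a median log2 ratio of knockout over wild type of -0.29, with 10 negative, and the 18 without a match had -0.13, with 14 negative. In the ruxolitinib response of knockout minus wild type the medians were 0.17 with a match and 0.08 without. Past 1.5-fold without drug in knockout over wild type were 2 members with a match and 1 without, all lower, beside 5.06% of all measured genes. For ruxolitinib over control in knockout, members with a match past 1.5-fold numbered 1 higher and 0 lower, beside 1.67% and 2.20% of all genes. In wild type they numbered 1 higher and 1 lower, beside 1.05% and 2.64%. The difference of responses had 2 higher and 0 lower, beside 1.82% and 1.14%. Members without a match numbered 0 in each of these. Map3k8, past 1.5-fold with the drug in both genotypes, had no window and is in neither group. Nfkbid and Tnfaip2 carried a match, Traf1 did not, and no window was given for Relb. Every member with a match counted for the drug was Nfkbid or Tnfaip2. The Nfkbid matches stand in the window whose start lies 898 bases from the 5′ end of the authors' locus. The window of the start 29 bases from that end had no match.

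Outside the 39, a further list of 64 genes of the NF-kB pathway had 51 measured. In KO control against WT control 1 of these was 1.5-fold higher and 5 were lower, beside 3.88% and 5.06% of all measured genes, with a median log2 ratio of -0.11. With ruxolitinib 1 was higher and 2 were lower in knockout, beside 2.97% and 3.34%, with a median of -0.07. Ruxolitinib over control gave 1 higher and 3 lower in knockout, beside 1.67% and 2.20%, and 0 higher and 2 lower in wild type, beside 1.05% and 2.64%, with medians of 0.03 in knockout and -0.01 in wild type. Tnfrsf9, the co-stimulatory receptor 4-1BB and an NF-kB target, showed the largest differences of this list in each direct comparison but that of KO rux with WT rux, where its log2 ratio was -0.13. It had 0.445 FPKM in KO rux and 1.64 in KO control, against 0.581 in WT rux and 10.01 in WT control, so WT control again stood alone. Gadd45b, an NF-kB-induced stress gene, had 1.41 FPKM in KO rux and 2.70 in KO control, against 1.04 in WT rux and 4.50 in WT control, with both treated libraries low as for Map3k8. Ltbr, the lymphotoxin receptor that activates NIK, had 10.99 FPKM in KO rux and 9.23 in KO control, against 17.3 in WT rux and 16.4 in WT control. Card9, an adaptor of C-type lectin receptors, had 3.45 FPKM in KO rux and 3.59 in KO control, against 6.43 in WT rux and 8.29 in WT control. For Ltbr and Card9 the genotypes did not overlap, as for Relb and Traf1, and the share of all genes without overlap was not counted.

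The list held 4 more genes past 1.5-fold in a direct comparison. Tnfaip8 had 81.3 FPKM in KO rux and 82.4 in KO control, against 108 in WT rux and 129 in WT control, and Tnfaip8l2 had 57.7 FPKM in KO rux and 41.7 in KO control, against 70.9 in WT rux and 64.3 in WT control. Both encode regulators of inflammation and cell death and were lower in the knockout. Higher in knockout were Tlr2, a Toll-like receptor, with 0.720 FPKM in KO rux and 1.89 in KO control, against 0.593 in WT rux and 0.852 in WT control, and Il1rap, a co-receptor of interleukin-1, with 11.1 FPKM in KO rux and 6.87 in KO control, against 6.48 in WT rux and 4.70 in WT control. Between genotypes Tlr2 passed 1.5-fold without drug and Il1rap with it. In ruxolitinib over control in knockout Tlr2 was past it on the lower side (log2 ratio -0.75) and Il1rap on the higher (0.62).

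Immediate early genes, which cells switch on within minutes of a stimulus, stood higher still in WT control. Of 16 listed 14 were measured, and WT control was their highest library for 12, beside 20.2% of all measured genes. Their summed level was 274 FPKM in KO rux and 288 in KO control, against 262 in WT rux and 623 in WT control. In KO control against WT control 9 of 14 were 1.5-fold lower and 0 higher, beside 5.06% and 3.88% of all genes. In WT rux against WT control 10 were lower and 0 higher, beside 2.64% and 1.05%. Their part in the NF-kB values was not tested.

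Markers of mast cells had the largest sum of the marker lists in all 4 libraries, although the cells are labelled by lineage and Kit alone. All genes together summed to 466334 FPKM in KO rux and 473933 in KO control, against 511644 in WT rux and 526299 in WT control. The 12 mast cell markers, of which Cpa3 was listed at 0, summed to 22210 FPKM in KO rux and 18390 in KO control, against 30110 in WT rux and 26420 in WT control. The 12 monocyte and macrophage markers, with 6 under 1 FPKM throughout, summed to 43.6 FPKM in KO rux and 35.7 in KO control, against 58.4 in WT rux and 55.4 in WT control, and their defining receptor Csf1r stayed under 0.2 FPKM. The 9 neutrophil markers found summed to 29.3 FPKM in KO rux and 29.3 in KO control, against 109 in WT rux and 90.5 in WT control, nearly all of it Ctsg. Stem and progenitor markers summed to 1226 FPKM in KO rux and 911.8 in KO control, against 1476 in WT rux and 1257 in WT control. Megakaryocyte markers summed to 678.1 FPKM in KO rux and 546.1 in KO control, against 932.9 in WT rux and 813.4 in WT control. These 5 sums were lower in the knockout, as most NF-kB genes were, and their part in that was not tested. A few abundant genes carried the sums, and not every marker went with them. In the mast cell list Cma1 had 10120 FPKM in KO rux and 8289 in KO control, against 15830 in WT rux and 13680 in WT control, and Fcer1a had 3648 FPKM in KO rux and 3451 in KO control, against 6008 in WT rux and 5594 in WT control. Tpsab1, Mrgprb1 and Mrgprb2 of that list were higher in both knockout libraries. In the stem and progenitor list Ly6a was lower in both knockout libraries, while Cd34 had 464.6 FPKM in KO rux and 317.2 in KO control, against 430.5 in WT rux and 306.8 in WT control. Basophil markers went the other way, at 549.5 FPKM in KO rux and 563.9 in KO control, against 363 in WT rux and 412.5 in WT control. Dendritic, T and NK and erythroid markers summed to at most 7.77 FPKM in a library, and all 5 B cell markers were under 1 FPKM.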

How the data were processed

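Total RNA depleted of ribosomal RNA with RiboZero was sequenced on Illumina, per the labels' protocols, and the submitters' processing notes name STAR, Cuffdiff and the build mm10; tool versions, strand handling, scaling and annotation are not stated there. The authors deposited FPKM per gene for 4 libraries, and a comparison table whose log2 fold changes carry no pseudocount and whose q-values the authors computed per library pair. Of 6 pairs there, 4 were used. Groups follow the titles in the labels. The q-values and log2 fold changes quoted as the authors' were copied from the deposited table.

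Ratios were taken here as log2(FPKM + 1), which understates changes of low genes. A gene was taken as measured when its 4 libraries averaged 1 FPKM or more, and 1.5-fold was the limit for counting. Every measured member is given with its 4 values, and members past 1.5-fold, the 5 subunits, Nfkbia and Tnfaip3 also with ratios, and from the further pathway list those past 1.5-fold, at most 6 per comparison by size. Other ratios and q-values were picked after their values were seen. The members and lists were chosen with earlier results of these data known. The steps were tested on simulated data.

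Depth was estimated, not counted, from the steps between the lowest FPKM values of genes with 1 transcript in GENCODE M21, and came to 52500000 fragments in KO rux and 54500000 in KO control, against 47600000 in WT rux and 44100000 in WT control. Of low values held out, 77.3% to 83.5% lay within 0.15 of a whole fragment. Fragments of a gene were estimated from its FPKM and the length of its longest coding transcript. Counting errors are those of a ratio of fragments without pseudocount, and they cover counting error only. Between 10323 and 10375 genes reached 1 FPKM per library. Coordinates, promoter windows and start sites are those of RefSeq on GRCm38.p6. The kappa-B consensus was searched on both strands as the only motif. Alternatives were a pseudocount of 0.1, the authors' log2 fold changes, no filter, TPM, centring on the median and a 2-fold limit. The software was matplotlib 3.10.9, scipy 1.17.1, pandas 2.3.3 and numpy 2.4.6 under Python 3.11.15.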

Additional observations from a re-analysis of the deposited data

Results flagged for a closer look

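For 2 of the 36 members the knockout ratios with and without ruxolitinib had opposite signs, with at least 1 of the 2 past 1.5-fold. Opposite signs of any size were more common. They held for 10 members lower without drug and higher with it, and for 1 the other way. Over the 10471 measured genes these numbered 905 and 915. How many of all genes had a ratio past 1.5-fold as well was not counted. With 1 library per group these differences were not tested. For Nfkbid the knockout over wild-type ratio was 0.265 with ruxolitinib and -0.740 without it, a difference of 1.005. For Tnfaip2 it was 0.127 with ruxolitinib and -0.588 without it, a difference of 0.715. Nfkbid also had opposite ratios of ruxolitinib over control, at 0.302 in knockout and -0.703 in wild type, a difference of 1.005 from the same 4 values. The ratios set side by side for a gene share no library, but the Nfkbid differences are one and the same quantity. WT control held the highest Nfkbid level.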

How the results depend on the processing

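No paired analysis was possible because each group holds 1 library, and for the same reason no replicate could be left out. No value past the fold limit changed sign under any of the 6 settings tried. In a direct comparison only TPM and centring on the median could have changed a sign. The pseudocount or its absence, the filter and the fold limit leave the sign as it is, so those settings say nothing on it. The members' median of KO rux over WT rux, near 0, turned from -0.04 to 0.09 under TPM. Of 10 counts of members past the fold limit, those without the filter on low values and with ratios centred on the median all kept their main values. With a pseudocount of 0.1, 1 member (Traf1) was lower in KO rux than in WT rux and 4 (Nfkbid, Nfkbiz, Tnfaip2, Zfp36) were higher in the difference of responses, and with the authors' log2 fold changes 1 (Traf1) and 5 (Map3k8 added), where the main counts were 0 and 2. Under TPM 2 members (Nfkbid, Traf1) were lower in KO control than in WT control, where the main count was 4, and WT control was the highest library for 10 members in place of 18, a setting chosen for that count after seeing the data. At 2-fold no member was lower in KO control (0), none higher in WT rux over WT control (0), 1 lower there (Map3k8), and 1 higher in the difference of responses (Nfkbid). On FPKM + 1, Relb and Tnfaip2 lay at the 1.5-fold limit without drug, and they fell short of it under TPM. The authors' log2 fold changes of KO control over WT control, with no pseudocount, were -0.80 for Relb and -0.63 for Tnfaip2. Depth limits Map3k8, Traf1 and Relb most, which rest on an estimated 56 to 340 fragments per library.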
